A study of Mus musculus with 6 samples.

Results

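The comparison described here set marrow cells sorted as CD11b+F4/80+ from mice 18 days after an intravenous graft of Raji cells against the same sort from mice without a graft. It uses 4 of the 6 libraries of the series, 2 at day 18 and 2 at day 0, and all genes of the deposited matrix. All mice were BALB/c mice of the genotype RAG2-/-γc-/-, which lack mature T, B and NK cells, and the ungrafted animals carried the same deletions. The cells came from the femur, and total RNA was sequenced. Raji is an established human Burkitt lymphoma line of B cell origin. Day 18 was 18 days after the injection. The other grafted group, at day 4, entered the gene filter, the scaling and the estimate of spread, but not the contrast. No ungrafted group was taken at day 18, so the graft, the injection and the passage of time cannot be told apart. Nothing in the labels ties the 2 libraries of a group to separate animals. The p-values therefore reflect the scatter between libraries, which could be technical.

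Macrophages are phagocytes that sense microbial and tissue signals through pattern recognition receptors, cytokine receptors and Fc receptors. NF-kB, JAK-STAT and interferon-responsive transcription factors carry those signals to genes for chemokines, complement, antigen presentation and their own feedback inhibitors. In marrow, macrophages take up dying cells and expelled erythroid nuclei, recycle iron and support blood cell formation, while tumour-associated macrophages in general are known for matrix remodelling and for checkpoint ligands.

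The deposited values were RPKM over the whole gene span and were turned back into reads per 1000000 assigned reads (RPM), scaled between libraries as described under the processing. Levels are given in RPM, which compares 1 gene between libraries and not different genes with each other. A gene is called higher or lower when limma gave a Benjamini-Hochberg adjusted p under 0.05 over all 14304 tested genes. The libraries held 20073016 and 22600765 assigned reads at day 18 and 23214529 and 22363768 at day 0.

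The label macrophage was checked first against marker genes. All 14 defining macrophage markers were tested, among them Adgre1, which encodes F4/80, and Itgam, which encodes CD11b. Their summed level was 17097 and 17181 RPM in the day 18 libraries, against 19308 and 19159 RPM in the day 0 libraries, most of it lysozyme Lyz2, which neutrophils express too. Reads of markers of mature neutrophils and their secondary granules summed to 127961 and 129115 RPM at day 18, against 168952 and 169271 RPM at day 0. These sums count reads and do not rank the expression of the lists. The neutrophil granule gene Ngp alone held 28646 ± 380 RPM at day 18 and 39454 ± 539 RPM at day 0 (SD, n = 2 each). Since reads of neutrophil genes were present at both times, the cells are called CD11b+F4/80+ sorted marrow cells below. In bulk samples, fewer cells of a type and less RNA per cell cannot be told apart.

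The 10 macrophage markers called higher included Cd14, the co-receptor of TLR4, and Csf1r, the receptor of the growth factor CSF1. Csf1r had 402 and 421 RPM at day 18, against 156 and 163 RPM at day 0 (log2 fold change 1.36 ± 0.035 SE, limma adjusted p = 3.47e-21), and its reads were not whole. Adgre1 had 61.0 and 62.1 RPM at day 18, against 35.3 and 33.9 RPM at day 0 (0.83 ± 0.069). The groups of both genes were far apart. The 4 markers called lower were Itgam, Lyz2, the mannose receptor Mrc1 and the sialoadhesin gene Siglec1, by 0.24 to 0.57 on the log2 scale. Siglec1 lost its call on the RPKM scale and with an equal spread at all levels.

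Day 18 differed from day 0 in 5043 of 14304 tested genes, 2578 higher (18%) and 2465 lower (17.2%), so 35.3% in either direction. An unadjusted p under 0.05 was reached by 6126 genes. Of the called genes, 51.1% were higher with the scaling used, against 70.7% with library totals alone. The median called rise was 0.61 and the median called fall -0.26 on the log2 scale. At least 2-fold changes numbered 772 higher (5.4% of tested genes) and 40 lower (0.28%), and at least 4-fold changes 199 higher and 7 lower. When limma tested for a change beyond 1.5-fold, 505 genes passed higher and 12 lower. The 2 libraries of each group stood apart from those of the other group in 9507 genes (66.5%).

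Direction went with abundance. Among the 641 genes with a mean log2 level of 8 or more, 60.5% were called lower and 21.2% higher. Among the 2721 genes with a level of 6 to 8, 43.7% were called lower and 18.5% higher. Among the 2861 genes with a level of 2 to 4, 24.1% were called higher and 4.79% lower. Of 8932 genes at a log2 level of at least 3, 255 were called at least 2-fold higher and 0 at least 2-fold lower. The power to call a small change also grows with level, and its part was not tested.

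**Figure D1:**
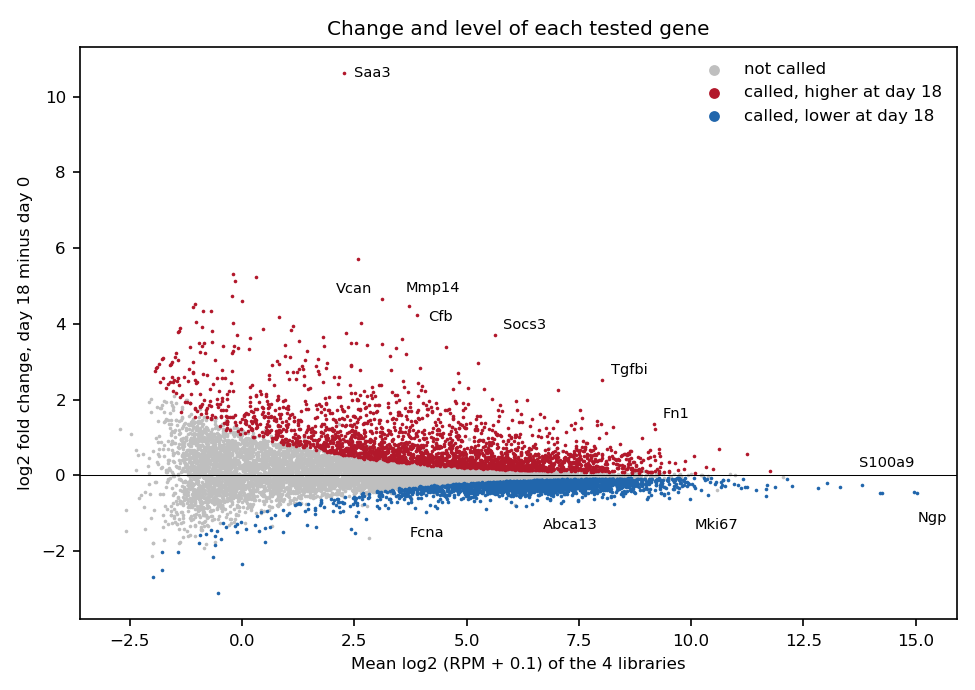
Each point is a tested gene, with its mean log2 (RPM + 0.1) over the 4 libraries on the x axis and its log2 fold change, day 18 minus day 0, on the y axis. Called rises (red) reach 10.62 for Saa3, while called falls (blue) of abundant genes stay within 1 log2 unit.

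The most extreme change was a gene silent at day 0. Saa3, which encodes an acute phase serum amyloid A protein, had 194 and 187 RPM at day 18, against 0 and 0.046 RPM at day 0. That is 8337 reads at day 18 against 1 read at day 0, a ratio of 8395 with a 95% counting interval of 1506 to 331618, which covers counting error only. The 2 day 4 libraries held 0 and 0.049 RPM.

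In all, 49 of the 14304 tested genes were called higher with at most 3 reads in each day 0 library, and 11 of them had 0 reads in both. The mirror count, of genes with few reads at day 18 and called lower, was not made. The 49 genes were selected as called higher with few day 0 reads, so their direction follows from the selection. After Saa3, those with the most reads at day 18 were Gm15056 with 236 reads against 2, the secreted serine protease Htra1 with 229 against 3, the endothelin receptor Ednrb with 124 against 2, and Igfbp6, an IGF-binding protein, with 103 against 1. The chemokine Ccl8 had 99 reads at day 18 and 0 at day 0, at least 33.2-fold higher when 3 reads are set for the day 0 group. The interferon-induced chemokine Cxcl11 had 91 reads against 0, at least 30.5-fold higher. Ccl12, the Fc receptor-like gene Fcrl5 and the OX40 ligand Tnfsf4 had 88, 89 and 83 reads at day 18, against 2, 4 and 1 at day 0. The inducible nitric oxide synthase gene Nos2 had 57 reads against 0, at least 19.1-fold higher, at a low level of 1.65 and 0.992 RPM.

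Among genes with a log2 level of at least 3, the 15 largest rises included matrix, complement, chemokine and feedback genes. Vcan, the matrix proteoglycan versican, had 42.8 and 43.2 RPM at day 18, against 1.95 and 1.34 RPM at day 0 (log2 fold change 4.65 ± 0.235 SE, limma adjusted p = 7.43e-15). Mmp14, a membrane-bound collagenase, had 62.2 and 62.3 RPM at day 18, against 2.58 and 2.87 RPM at day 0 (4.47 ± 0.177). Cfb, factor B of the alternative complement pathway, had 63.5 and 66.6 RPM at day 18, against 3.06 and 3.65 RPM at day 0 (4.24 ± 0.149). In each of these genes the libraries of a group lay close together and no value of 1 group came near the other. Socs3, the feedback inhibitor of cytokine receptors that signal through STAT3, had 183 and 175 RPM at day 18, against 12.3 and 15.03 RPM at day 0 (3.71 ± 0.093). The rest of the 15 largest rises ran from 2.51 to 3.61. They included Cxcl16, a membrane-bound chemokine, Clec4n, which encodes the fungal receptor dectin-2, the transglutaminase Tgm2, Ms4a4a and Ms4a6d of the MS4A membrane protein family, the chemerin receptor Cmklr1, the IkB family member Bcl3, the Ral exchange factor Ralgds, the scavenger receptor Msr1, and Tgfbi. Tgfbi, an adhesive matrix protein gene, had 618 and 627 RPM at day 18, against 112 and 106 RPM at day 0. Spon1, the matrix protein F-spondin, was below the level limit and was chosen after its values were seen. It had 41.8 and 44.5 RPM at day 18, against 0.799 and 0.647 RPM at day 0 (5.72).

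Cfb, Cxcl16, Ms4a6d and Tgfbi had read numbers that were not whole in at least 1 library, so counting may have divided reads between genes. Vcan, Tgm2, Bcl3, Cfb and Cxcl16 each overlap another listed gene, and the counting strand is not given in the sources used here.

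**Figure D2:**
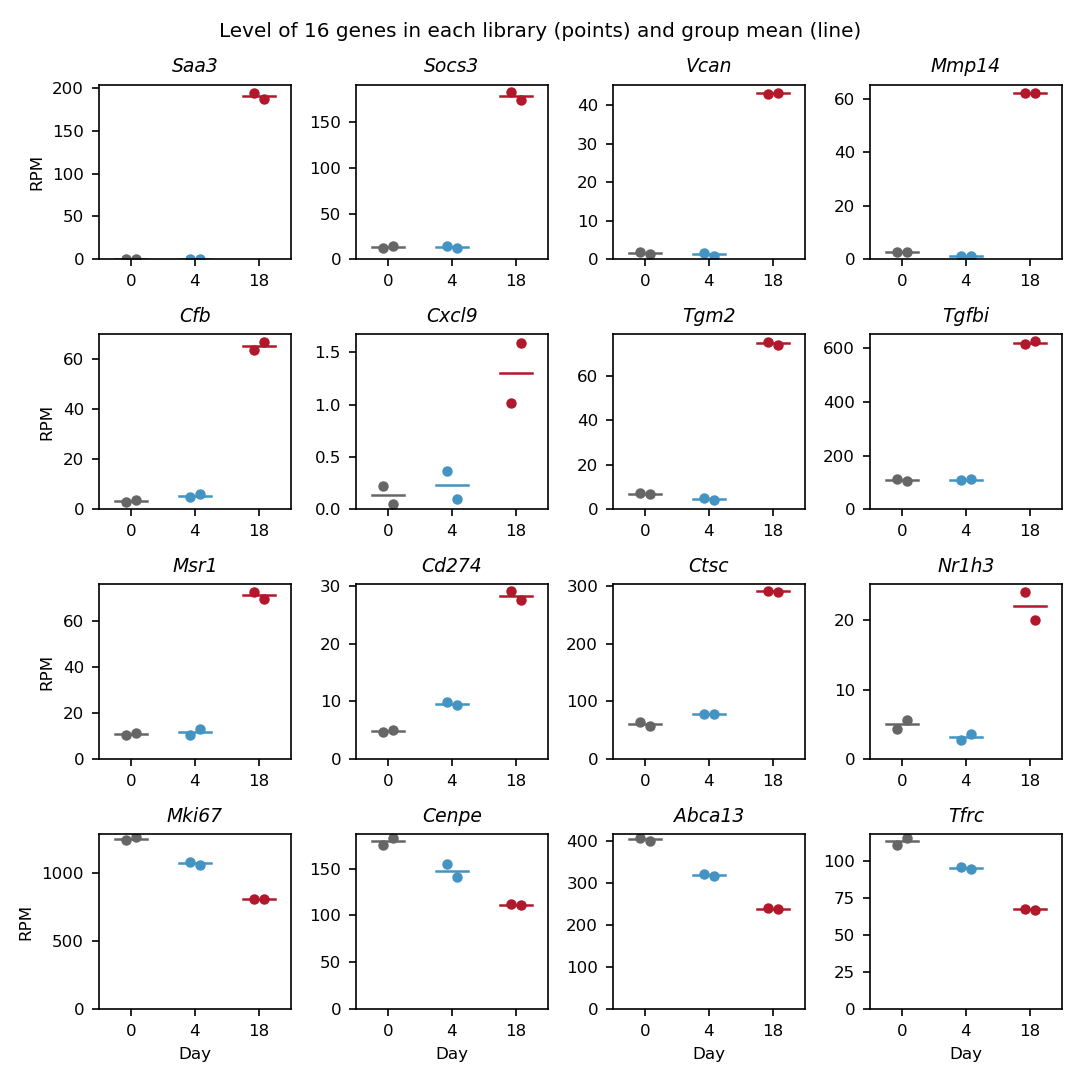
Levels in RPM of 16 genes in each library (points) with the group mean (line), at days 0, 4 and 18, on axes that start at 0. The 12 genes of the upper rows lie higher at day 18 than at day 0 in every library, and Mki67, Cenpe, Abca13 and Tfrc lie lower.

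The promoter windows of 3 of these genes are shown because each holds a motif of a pathway whose genes are described next. They run from 250 bases before to 50 bases after the RefSeq start (GRCm38.p6), 5′ to 3′ on the strand of the gene, with the motif in capitals. Saa3 lies on the minus strand at chr7:46715627-46715926, and its capitals mark a match to the C/EBP motif TTGCNNAA, read on the opposite strand, that begins at position -99 from the start. Socs3 lies on the minus strand at chr11:117969317-117969616 with a STAT match, TTCNNNGAA, at -154. Cxcl2, a neutrophil-attracting chemokine, lies on the plus strand at chr5:90903649-90903948 with an NF-kB match (GGGA, any base, then TTTCC) at -97.
Saa3: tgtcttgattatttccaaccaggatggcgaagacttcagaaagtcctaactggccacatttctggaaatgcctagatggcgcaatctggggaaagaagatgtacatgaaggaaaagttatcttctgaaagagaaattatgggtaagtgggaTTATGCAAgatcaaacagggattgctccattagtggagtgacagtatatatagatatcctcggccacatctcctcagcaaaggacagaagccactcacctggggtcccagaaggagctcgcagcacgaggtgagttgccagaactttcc
Socs3: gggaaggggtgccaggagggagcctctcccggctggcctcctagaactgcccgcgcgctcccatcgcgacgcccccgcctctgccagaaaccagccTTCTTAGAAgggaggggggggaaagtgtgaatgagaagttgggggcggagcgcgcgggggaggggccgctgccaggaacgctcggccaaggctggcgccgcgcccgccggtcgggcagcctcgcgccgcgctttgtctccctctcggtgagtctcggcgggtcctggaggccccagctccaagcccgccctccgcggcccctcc
Cxcl2: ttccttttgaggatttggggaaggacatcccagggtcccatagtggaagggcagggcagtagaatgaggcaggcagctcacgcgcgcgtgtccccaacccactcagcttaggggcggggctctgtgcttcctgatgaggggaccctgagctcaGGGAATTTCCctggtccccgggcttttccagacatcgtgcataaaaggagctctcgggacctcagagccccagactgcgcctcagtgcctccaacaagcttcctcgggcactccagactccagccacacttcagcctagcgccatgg

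Of 30 tested receptors of inflammatory cytokines, 22 were called higher and 3 lower, with a median log2 change of 0.54 against 0.02 over all tested genes. Csf2rb2, a beta subunit of the IL-3 receptor, had 98.2 and 89.5 RPM at day 18, against 29.1 and 27.8 RPM at day 0 (1.72 ± 0.077, limma adjusted p = 4.75e-16). Its reads were not whole, and it is a close copy of Csf2rb, which was called higher by 0.70. Il6st, the gp130 subunit shared by the IL-6 family, had 46.1 and 41.0 RPM at day 18, against 15.9 and 14.8 RPM at day 0 (1.496). Il4ra, Il10ra and Csf1r were higher by 1.33, 1.06 and 1.36. The receptors called lower were Il1rap, Il18rap and Csf3r, the G-CSF receptor, by 0.39, 0.14 and 0.15.

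Of 27 pattern recognition genes, 17 were called higher and 0 lower (median 0.55). Tlr1, a partner of TLR2 for bacterial lipopeptides, had 36.0 and 36.2 RPM at day 18, against 8.19 and 5.996 RPM at day 0 (2.35 ± 0.139). Clec4e, the mycobacterial glycolipid receptor Mincle, had 101 and 98.1 RPM at day 18, against 29.3 and 32.1 RPM at day 0 (1.70 ± 0.073). Cd14, Tlr2, Tlr9 and Tlr13 were higher by 1.62, 1.06, 1.29 and 1.01, and Nlrp3, the inflammasome sensor, by 0.98. Tlr4 itself was not called, with 38.1 and 40.0 RPM at day 18 against 38.8 and 35.0 RPM at day 0.

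Of 20 NF-kB subunits, inhibitors and adaptors, 17 were called higher and 0 lower (median 0.66). Traf1, an adaptor of TNF receptors, had 18.4 and 18.3 RPM at day 18, against 1.02 and 1.53 RPM at day 0 (3.77). Relb and Nfkb2, the subunits of the non-canonical pathway, were higher by 1.92 and 1.41. The feedback inhibitors Nfkbia and Tnfaip3 were higher by 0.98 and 1.43, while Rela was not called (0.12, limma adjusted p = 0.067), except with library totals alone (0.20) and with a filter of 50 reads (0.13).

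Of 32 JAK-STAT feedback genes and STAT3 targets, 17 were called higher and 7 lower (median 0.35). Besides Saa3, Socs3 and Bcl3, Timp1 rose by 3.41 at a level of 1.79 and 1.55 RPM at day 18, against 0.178 and 0 RPM at day 0. The kinase genes Jak3 and Pim1 were higher by 1.16 and 1.00, and Stat3 by 0.22. Neutrophil-expressed acute phase genes were among the 7 called lower, with Lcn2 at -0.34, Lrg1 at -0.20 and Hp at -0.07. Also called lower were Jak1, Cebpd and Stat4, and Stat4 (-0.44) went to -0.34 and lost its call without day 18 library A or day 0 library A. With library totals alone 3 of the 7 stayed called, and Hp turned to 0.02.

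Of 36 immediate early and AP-1 genes, 33 were called higher and 1, Ier2, lower (median 0.66). Fosb had 406 and 404 RPM at day 18, against 189 and 186 RPM at day 0 (1.11 ± 0.033, limma adjusted p = 6.72e-20). Fos, Jun, Junb and Dusp1 were higher by 0.68, 0.75, 0.65 and 0.83. Of 39 macrophage and monocyte transcription factors, 26 were called higher and 4 lower (median 0.64). Cebpb, a regulator of acute phase and inflammatory genes, had 269 and 274 RPM at day 18, against 152 and 148 RPM at day 0 (0.86). Klf4, Irf8 and Irf5 were higher by 1.11, 1.09 and 0.90. The factors called lower were the granulocyte factor Cebpe (-0.26), Cebpd (-0.17), Id1 (-0.19) and Myb (-0.14). Id1 lost its call without any 1 of the 4 libraries (-0.17 to -0.21), and Myb without day 18 library A (-0.11) or day 0 library B (-0.12).

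**Figure D3:**
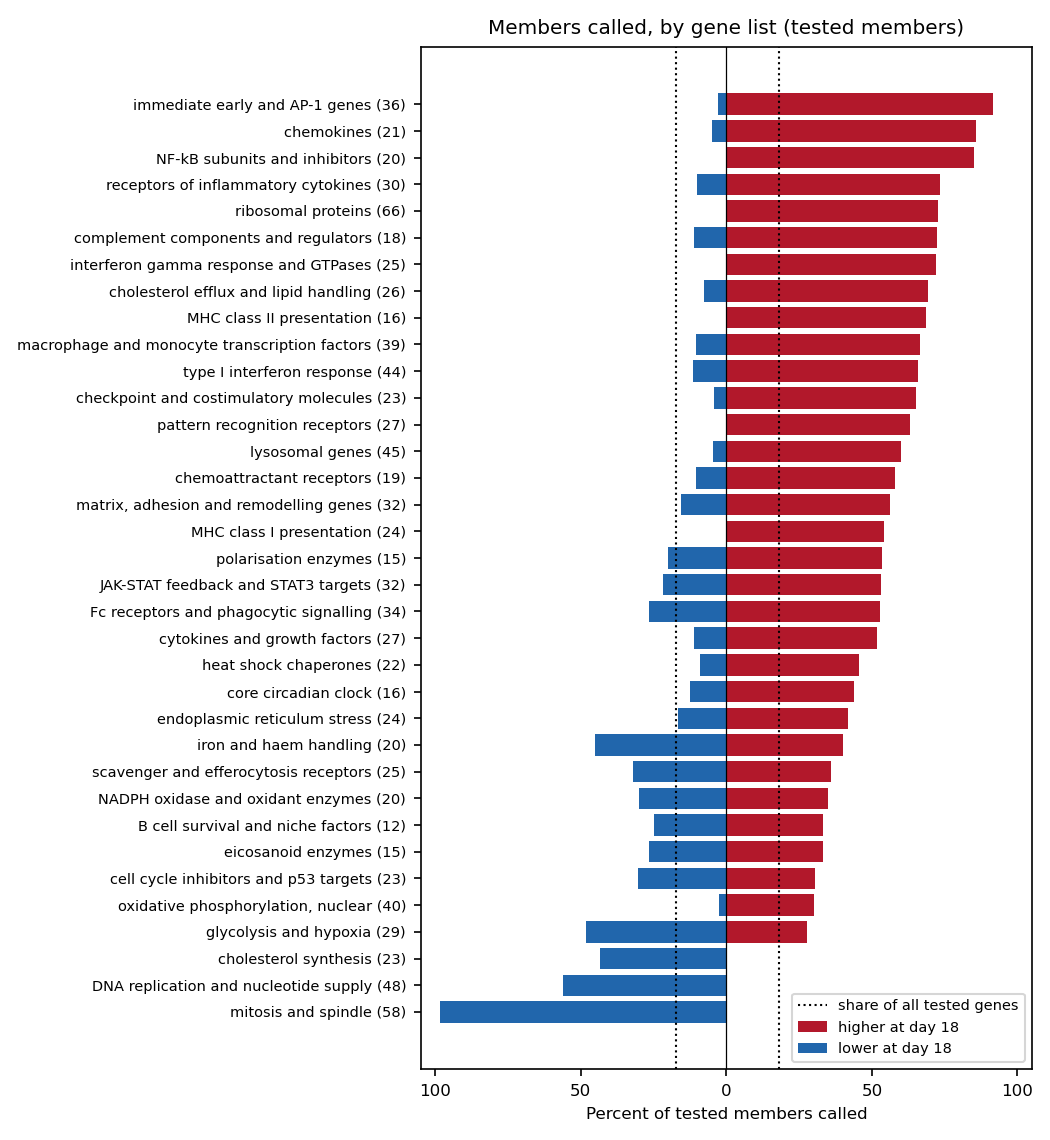
For each gene list (tested members in brackets), the bar to the right is the percent of tested members called higher at day 18 and the bar to the left the percent called lower, with dotted lines at the shares over all tested genes (18% and 17.2%). Immediate early genes, chemokines and NF-kB genes stand at the top, and the mitosis list at the bottom.

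Chemokines had the largest median of all lists tested. Of 21 tested chemokines, 18 were called higher and 1 lower, with a median of 2.00. Cxcl2 had 165 and 161 RPM at day 18, against 39.3 and 42.0 RPM at day 0 (2.00 ± 0.064, limma adjusted p = 4.19e-19). Cxcl16 had 41.8 and 40.8 RPM at day 18, against 4.28 and 2.53 RPM at day 0 (3.61 ± 0.198). Cxcl10, Ccl2 and Ccl5, which attract T cells or monocytes, were higher by 1.80, 1.66 and 2.92. Cxcl13, the B cell follicle chemokine, had 3.20 and 3.32 RPM at day 18, against 0.133 and 0.185 RPM at day 0 (3.70). Several of the chemokines called higher were rare, and Ccl8, Cxcl11, Ccl7 and Cxcl3 were at 0 reads in both day 0 libraries. Genes without reads at day 0 could not be called lower. Ccl7, Ccl8 and Ccl12 had 0 reads at day 4 too, or at most 2 at day 0, and passed the filter only through day 18. The count and the median of the list therefore rest partly on members whose direction was fixed by the filter. Cxcl3 lost its call without any 1 of the 4 libraries, and Ccl7 without either day 18 library. The chemokine called lower was Cxcl12, the stromal factor that retains blood cells in marrow, with 4.02 and 2.67 RPM at day 18 against 9.55 and 9.76 RPM at day 0 (-1.53 ± 0.21).

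Of 19 chemoattractant receptors, 11 were called higher and 2 lower. Ccr2, the receptor for CCL2 on classical monocytes, had 473 and 474 RPM at day 18, against 199 and 194 RPM at day 0 (1.27 ± 0.031). Cmklr1 had 31.1 and 27.5 RPM at day 18, against 2.58 and 3.98 RPM at day 0 (3.15 ± 0.192). The anaphylatoxin receptor C3ar1 was higher by 1.39. The receptors called lower, Cxcr4 and the leukotriene receptor Ltb4r1, fell by 0.16 and 0.15.

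Of 27 cytokines and growth factors, 14 were called higher and 3 lower (median 0.34). The count of rises was 9 without day 18 library B and 9 without day 0 library A. Il1b had 190 and 187 RPM at day 18, against 81.0 and 76.0 RPM at day 0 (1.26), and its antagonist Il1rn had 97.0 and 100 RPM, against 47.8 and 48.6 RPM (1.03). Il6 was rare, with 2.42 and 2.67 RPM at day 18 against 0.311 and 0.092 RPM at day 0 (3.23 ± 0.544). Tnf rose by only 0.14 (limma adjusted p = 0.048), and that call was lost in 11 alternatives, among them each of the 4 libraries left out (0.11 to 0.18). The cytokines called lower were Igf1 (-1.06), the B cell survival factor Tnfsf13b (-0.50) and the vascular growth factor Vegfa (-0.32). Of 12 genes for B cell survival and niche factors, 4 were called higher and 3 lower, and Cxcl13, Il6, Tnfsf13b, Cxcl12 and Igf1 of those are given above. The other genes called higher in that list, Vcam1 and Tnfsf13, changed by 0.16 and 0.31. Vcam1 lost its call without day 18 library B (0.13) or day 0 library A (0.11), and Tnfsf13 without any 1 of the 4 libraries (0.29 to 0.34).

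Of 18 tested complement components and regulators, 13 were called higher and 2 lower. Beyond Cfb, C4b, a component of the classical pathway, had 5.24 and 4.50 RPM at day 18, against 0.912 and 0.620 RPM at day 0 (2.54). The classical pathway genes C1qa, C1qb and C1qc were higher by 0.75, 0.47 and 0.68. The central component C3 was called lower, with 2196 and 2158 RPM at day 18 against 2664 and 2710 RPM at day 0 (-0.30). Itgam, a subunit of complement receptor 3, was the other member called lower.

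Of 16 tested MHC class II genes, 11 were called higher and 0 lower (median 1.28). Of 24 tested class I genes, 13 were called higher and 0 lower (median 0.18). In each of several alternatives, 1 class I gene was called lower. Among them were median-of-ratios scaling, the 4 compared libraries alone, and leaving out the 20 most abundant genes. Testing only genes with whole reads also drops class I members, and gave 5 higher and 1 lower. The difference between the classes was not tested. Ciita, the transactivator of class II genes, had 51.9 and 53.7 RPM at day 18, against 13.2 and 13.4 RPM at day 0 (1.98 ± 0.096, limma adjusted p = 3.13e-15). H2-Eb1, a class II beta chain, had 329 and 319 RPM at day 18, against 114 and 112 RPM at day 0 (1.52). H2-K1, a classical class I gene, had 225 and 227 RPM, against 148 and 145 RPM (0.63), and its reads were not whole. The class I transactivator Nlrc5 was higher by 1.56, with 9.20 and 9.57 RPM at day 18 against 2.89 and 3.38 RPM at day 0. H2-Q7 was higher by 2.64, but reads of the near-identical H2 genes may have been divided between them.

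Of 25 tested interferon gamma responsive genes and GTPases, 18 were called higher and 0 lower (median 1.09), and of 44 type I interferon genes 29 were higher and 5 lower (median 0.62). Icam1, the ligand of LFA-1, had 68.8 and 65.3 RPM at day 18, against 11.9 and 12.2 RPM at day 0 (2.47). Fcgr1, the high-affinity IgG receptor, had 33.3 and 35.2 RPM at day 18, against 8.22 and 11.5 RPM at day 0 (1.81). The GTPase gene Gbp5 was higher by 2.75, with 7.46 and 9.22 RPM at day 18 against 2.00 and 0.647 RPM at day 0. Slfn5, Ifit1, Oasl2 and Irf7 were higher by 1.11, 1.60, 1.40 and 0.70. The type I genes called lower included Samd9l (-0.32), Cmpk2 (-0.24), Oas3 (-0.19) and Sp100 (-0.10). Oas3 lost its call without day 18 library B (-0.16) or day 0 library B (-0.19), and Sp100 without day 18 library B (-0.07) or day 0 library A (-0.06).

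Of 23 checkpoint and costimulatory genes, 15 were called higher and 1 lower (median 1.21). Cd274, which encodes PD-L1, had 29.1 and 27.6 RPM at day 18, against 4.79 and 5.13 RPM at day 0 (2.49 ± 0.134, limma adjusted p = 2.53e-14). Cd40, the costimulatory receptor, had 15.3 and 13.7 RPM, against 1.64 and 2.13 RPM (2.89). Nectin2, a ligand of TIGIT and CD226, had 8.91 and 7.24 RPM, against 0.355 and 0.601 RPM (3.85). Cd276, or B7-H3, and Havcr2, or TIM-3, were higher by 3.55 and 2.96. Vsir, or VISTA, was called lower by 0.07, and with library totals alone it turned to 0.02. It lost its call without day 18 library A (-0.05) or day 0 library A (-0.04). Cd47, the ligand of the phagocytic inhibitor SIRP alpha, was lower by 0.18 (508 and 507 RPM at day 18 against 576 and 572 RPM at day 0), while its receptor Sirpa was higher by 0.32.

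Of 34 Fc receptors and phagocytic signalling genes, 18 were called higher and 9 lower (median 0.10). The inhibitory receptor Fcgr2b had 230 and 241 RPM at day 18, against 166 and 164 RPM at day 0 (0.51). The activating receptor Fcgr4 had 55.5 and 54.2 RPM, against 36.2 and 35.8 RPM (0.61). The change of Fcgr3 was 0.12, and its call was lost without day 18 library B (0.12) or day 0 library B (0.10). Reads of Fcgr2b and Fcgr3 were not whole. Members called lower included Plcg2 (-0.22) and Itgb2 (-0.18).

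Of 45 lysosomal genes, 27 were called higher and 2 lower (median 0.30). Ctsc, the protease that activates granule serine proteases, had 291 and 290 RPM at day 18, against 64.1 and 56.6 RPM at day 0 (2.27 ± 0.051, limma adjusted p = 4.39e-22). Ctss and Lgmn, which process antigens for class II, were higher by 1.73 and 1.87. Psap, the saposin precursor, had 2037 and 1984 RPM at day 18, against 1232 and 1259 RPM at day 0 (0.69). Ctse was called lower (-0.53), while vacuolar ATPase genes such as Atp6v1a (-0.01) and Atp6v1h (0.10) were not called.

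Of 25 scavenger and efferocytosis receptors, 9 were called higher and 8 lower. Msr1 had 73.0 and 69.7 RPM at day 18, against 10.4 and 11.5 RPM at day 0 (2.70). Those called lower included Mrc1 with 39.2 and 41.0 RPM at day 18 against 55.3 and 53.3 RPM at day 0 (-0.44), Olr1 (-0.44), Axl (-0.26), the haemoglobin scavenger receptor Cd163 (-0.58) and Stab2 (-0.94). Cd163 lost its call without day 18 library A (-0.54) or day 0 library A (-0.53), and Stab2 without day 18 library B (-0.72) or day 0 library B (-0.79).

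Of 26 cholesterol efflux and lipid handling genes, 18 were called higher and 2 lower (median 0.45). Of 23 cholesterol synthesis genes, 10 were called lower, 0 were called higher and 13 were not called (median -0.16). Nr1h3, which encodes the oxysterol receptor LXR alpha, had 24.1 and 19.96 RPM at day 18, against 4.35 and 5.64 RPM at day 0 (2.12 ± 0.187, limma adjusted p = 5.27e-10). Its known targets Abca1, Apoe and Pltp were higher by 1.29, 0.98 and 1.74. Hsd17b7, an enzyme of the late steps of cholesterol synthesis, had 29.1 and 28.0 RPM at day 18, against 45.6 and 44.7 RPM at day 0 (-0.66 ± 0.075). Fdft1 and Idi1 were lower by 0.51 and 0.48. Lpl and Acsl1, which supply fatty acids, were the lipid handling genes called lower (-0.55 and -0.21). The count of synthesis genes called lower was 6 on the RPKM scale and 4 with an equal spread at all levels, and 2 were called higher with library totals alone.

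Of 32 matrix, adhesion and remodelling genes, 18 were called higher and 5 lower (median 0.33). Fn1, fibronectin, had 936 and 926 RPM at day 18, against 356 and 372 RPM at day 0 (1.35 ± 0.029). Tgm2, which crosslinks matrix proteins, had 75.1 and 74.1 RPM, against 7.15 and 6.98 RPM (3.38). The integrin alpha 5 chain Itga5, which binds fibronectin, was higher by 1.25. The members called lower were Mmp25 and Mmp8, Plau, Cd9 and Cd44, by 0.09 to 0.32, and 3 of the 5 calls stayed with library totals alone. Cd44 lost its call without day 18 library A (-0.07) or day 0 library A (-0.09), and Mmp8 without day 18 library A (-0.09) or day 0 library B (-0.07).

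Of 15 polarisation enzymes and markers, 8 were called higher and 3 lower. Arginase Arg1 was rare, with 2.52 and 2.67 RPM at day 18 against 0.222 and 0.139 RPM at day 0 (3.28), and the mitochondrial Arg2 had 28.8 and 30.03 RPM, against 13.999 and 13.5 RPM (1.09). Acod1, which makes itaconate, had 13.5 and 11.2 RPM, against 1.199 and 0.647 RPM (3.65 ± 0.345, limma adjusted p = 2.14e-09). Genes assigned to alternative activation went both ways, with Chil3 at 2688 ± 1.01 RPM at day 18 and 3948 ± 24.5 RPM at day 0 (SD, n = 2 each, -0.55). Nos2, given above, and Arg1 were both at low levels in the day 18 libraries.

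Of 20 NADPH oxidase and oxidant enzyme genes, 7 were called higher and 6 lower. The oxidase subunits Cybb, Ncf1 and Rac2 were lower by 0.31, 0.23 and 0.30, and Cybb had 3342 and 3335 RPM at day 18 against 4122 and 4178 RPM at day 0. Sod2 had 85.4 and 86.8 RPM at day 18, against 34.9 and 28.9 RPM at day 0 (1.44). Of 20 iron and haem genes, 8 were called higher and 9 lower. Ferritin heavy chain Fth1 had 787 and 822 RPM at day 18, against 496 and 487 RPM at day 0 (0.71). The transferrin receptor Tfrc had 67.8 and 66.8 RPM, against 111 and 116 RPM (-0.75 ± 0.05), and the iron exporter Slc40a1 was lower by 0.35. Of 15 eicosanoid enzymes, 5 were called higher and 4 lower, with Alox5 and Ptgs1 lower by 0.35 and 0.33. The count higher was 2 without day 0 library B, 2 on the RPKM scale and 2 with an equal spread at all levels.

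Of 66 tested ribosomal protein genes, 48 were called higher and 0 lower (median 0.53). Rps9 had 767 and 771 RPM at day 18, against 504 and 507 RPM at day 0 (0.60). All 66 had reads that were not whole in at least 1 library, so the list has no member on whole reads only. The elongation factors Eef1a1 and Eef2 were higher by 0.58 and 0.52. Of 40 nuclear oxidative phosphorylation genes, 12 were called higher and 1 lower (median 0.08), and the 1 lower lost its call without day 18 library A or day 0 library B. The count higher was 22 with library totals alone, 7 without either day 18 library, 4 on the RPKM scale and 2 with an equal spread at all levels. Of 29 glycolysis and hypoxia genes, 8 were called higher and 14 lower (48.3%), against 13 and 8 with library totals alone. Of all tested genes at a log2 level of 6 to 8, 43.7% were called lower. The glucose transporter Slc2a1 had 34.1 and 29.3 RPM at day 18, against 13.6 and 13.8 RPM at day 0, and the hypoxia factor Hif1a was higher by 1.03, while the hexokinases Hk2 and Hk3 were lower by 0.30 and 0.29.

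Of 22 heat shock chaperones, 10 were called higher and 2 lower, with Hspa1a at 1.10 and Hspa8 at 0.42. The members called lower were Stip1 (-0.16), a cochaperone, and Hsp90aa1 (-0.18), an HSP90 gene. Stip1 lost its call without day 18 library A (-0.15), day 18 library B (-0.16) or day 0 library B (-0.10), and Hsp90aa1 without day 0 library B (-0.13). Neither was called with library totals alone, on the RPKM scale or with an equal spread at all levels. Of 24 endoplasmic reticulum stress genes, 10 were called higher and 4 lower, with Herpud1 at 0.48 and Edem1 at -0.23. The count higher was 6 without day 18 library A and 4 with an equal spread at all levels. Of 16 clock genes, 7 were called higher and 2, Cry1 (-0.26) and Hlf (-0.54), lower. Cry1 lost its call without day 18 library B (-0.24), with library totals alone (-0.17), on the RPKM scale (-0.23) and with an equal spread at all levels, and Hlf without day 18 library A (-0.48) or day 0 library A (-0.48). Per1, which glucocorticoids also induce, had 67.7 and 62.0 RPM at day 18, against 24.02 and 25.2 RPM at day 0 (1.39 ± 0.081). The time of day of the sorts is not given in the sources used here.

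Of 58 tested mitosis and spindle genes, 57 were called lower and 0 higher (median -0.39), and the exception, Cenpk, was at -0.11 (limma adjusted p = 0.66). Mki67, the proliferation antigen, had 810 and 810 RPM at day 18, against 1247 and 1266 RPM at day 0 (-0.63 ± 0.019). Cenpe, a kinetochore motor, had 112 and 111 RPM, against 175 and 183 RPM (-0.68 ± 0.044, limma adjusted p = 1.17e-12). Top2a, Smc2 and Plk1 were lower by 0.48, 0.61 and 0.44. Of 48 tested DNA replication and nucleotide supply genes, 27 were called lower (56.3%) and 0 higher (median -0.19). Over all tested genes 17.2% were called lower, but 43.7% of those at a log2 level of 6 to 8. The part of level in this count was not tested. The ribonucleotide reductase genes Rrm1 and Rrm2 were lower by 0.41 and 0.43, and Mcm2 of the replicative helicase by 0.23. Pcna was not called (-0.07). The replication count became 16 with an equal spread at all levels. Of 23 cell cycle inhibitors and p53 targets, 7 were called higher and 7 lower, with Cdkn1a, or p21, at 38.8 and 40.8 RPM at day 18 against 15.01 and 17.6 RPM at day 0 (1.29), and Cdkn2c at -0.20. The count lower was 4 with library totals alone and 3 with an equal spread at all levels. The summed neutrophil markers given above were lower at day 18 too, and the part of those markers in these falls was not tested.

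Promoter windows of 2 of the mitosis genes are shown because they carry the elements known from cell cycle promoters. Capitals mark the CHR letters TTTGAA and the CCAAT box CCAAT, on either strand. Cdc20, an activator of the anaphase-promoting complex that was lower by 0.35, lies on the minus strand at chr4:118437294-118437593. It has a CHR match at -18 and CCAAT matches at -53 and -8. Mki67 lies on the minus strand at chr7:135716330-135716629 with CHR matches at -116 and -98 and CCAAT matches at -188, -166 and -141.
Cdc20: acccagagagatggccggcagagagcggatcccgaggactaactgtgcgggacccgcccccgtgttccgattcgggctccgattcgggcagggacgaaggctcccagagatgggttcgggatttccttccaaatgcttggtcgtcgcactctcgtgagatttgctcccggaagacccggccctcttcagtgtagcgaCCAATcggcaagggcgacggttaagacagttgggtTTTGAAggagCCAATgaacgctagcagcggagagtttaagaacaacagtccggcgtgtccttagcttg
Mki67: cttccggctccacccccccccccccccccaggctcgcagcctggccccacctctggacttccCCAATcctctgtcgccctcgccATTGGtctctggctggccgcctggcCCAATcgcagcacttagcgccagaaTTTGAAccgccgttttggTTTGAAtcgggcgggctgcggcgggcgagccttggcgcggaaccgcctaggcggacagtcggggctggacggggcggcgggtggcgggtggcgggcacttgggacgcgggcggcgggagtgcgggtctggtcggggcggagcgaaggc

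The 15 largest falls at a log2 level of at least 3 were all smaller than 2-fold. Fcna, the lectin ficolin A of marrow and spleen macrophages, had 11.9 and 12.5 RPM at day 18, against 24.1 and 23.6 RPM at day 0 (-0.96 ± 0.114, limma adjusted p = 1.17e-07). Abca13, a transporter of the ABC family, had 240 and 238 RPM, against 407 and 401 RPM (-0.76 ± 0.03). Syne2, a nuclear envelope protein, had 103 and 110 RPM, against 175 and 181 RPM (-0.74). Stag3, Lyz1, Nanos1, Klhl42, Neto2, Slc39a11, Dnah8, Zfp979, Hunk, Mybl1 and Mbnl3 fell by 0.71 to 0.89, and Tfrc is described above. Counted in reads, Ngp, S100a9, Ltf and S100a8 together made up 28.0% of the RPM lost over all genes with a loss. S100a8 was at -0.46 and lost its call without any 1 of the 4 libraries (-0.42 to -0.50).

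Markers of other cell types moved as follows, against shares of 18% called higher and 17.2% called lower over all tested genes. Of all tested genes at a log2 level of 8 or more, 60.5% were called lower. Of 23 tested secondary granule and mature neutrophil markers, 15 were called lower and 5 higher (median -0.19). Ltf, lactoferrin, had 16182 ± 176 RPM at day 18 and 22495 ± 22.9 RPM at day 0 (SD, n = 2 each, -0.48), and Ly6g had 610 and 605 RPM, against 827 and 844 RPM (-0.46). Those called higher were Retnlg, Il1r2, Stfa2, Stfa2l1 and Olfm4, by 0.16 to 0.90. Il1r2 lost its call without day 18 library B (0.43) or day 0 library B (0.35), and Stfa2 without day 18 library B (0.74) or day 0 library A (0.70). The count lower was 7 when the 20 most abundant genes were left out of the test. Of 11 primary granule markers, 5 were called higher and 5 lower, with Mpo at 1393 and 1414 RPM at day 18 against 1195 and 1200 RPM at day 0 (0.23).

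Of 11 eosinophil markers, 9 were called higher and 0 lower, and the list summed to 857 and 854 RPM at day 18 against 500 and 494 RPM at day 0. Prg2, the major basic protein, had 275 and 276 RPM, against 153 and 152 RPM (0.85). Of 14 dendritic cell markers, 4 were called higher (28.6%) and 3 lower (21.4%), near the 18% and 17.2% over all tested genes. The dendritic count lower was 1 on the RPKM scale and 1 with an equal spread at all levels. Itgax, which encodes CD11c, was higher by 1.90, while Cd209a, Clec9a and the plasmacytoid marker Siglech were lower by 1.16, 1.05 and 2.15. Siglech was rare, with 0.194 and 0.216 RPM at day 18 against 1.69 and 0.925 RPM at day 0, and lost its call without day 0 library A (-1.76). Clec9a lost its call without day 18 library A (-0.79), day 0 library A (-1.14) or day 0 library B (-0.97). Of 14 classical monocyte markers, 8 were called higher and 4 lower, and of 12 non-classical markers 8 and 3. The classical count lower was 2 on the RPKM scale, 1 with library totals alone and 1 with an equal spread at all levels. F13a1 of the first list and Ace of the second were higher by 1.38 and 1.05. The classical markers called lower were Ly6c2 (-0.14), Mgst1 (-0.11), Hp (-0.07) and Chil3 (-0.55). Non-classical markers called lower included Ceacam1 (-0.46) and Spn (-0.17). The classical markers summed to 7577 and 7549 RPM at day 18 against 7636 and 7555 RPM at day 0. The non-classical markers summed to 2732 and 2735 RPM at day 18 against 3027 and 2971 RPM at day 0. The part of these shifts in the changes of the pathway lists was not tested.

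Lymphoid markers were scarce. Of 18 B cell markers, 9 were listed and 5 tested, and they summed to 50.1 and 48.4 RPM at day 18 against 53.3 and 54.3 RPM at day 0. Ighm was called lower, with 30.8 and 27.8 RPM at day 18 against 36.3 and 39.0 RPM at day 0. Cd79a had 1 and 6 reads at day 18 and 3 and 10 reads at day 0. Of 20 T and NK cell markers, 10 were listed and 4 tested, summing to 97.9 and 101 RPM at day 18 against 97.6 and 97.0 RPM at day 0. Of 7 tested stromal, endothelial and osteoblast markers, 3 were called higher and 1, the stromal factor Cxcl12 described above, lower. They stayed low in sum, at 29.8 and 25.5 RPM at day 18 against 17.3 and 17.8 RPM at day 0. Those called higher were Kdr, Pecam1 and Pdgfrb, by 3.29, 1.48 and 1.98. Pdgfrb lost its call on the RPKM scale (0.33) and with an equal spread at all levels, and went to 1.76 without day 18 library A. Erythroid markers summed to 442 and 451 RPM at day 18 against 369 and 386 RPM at day 0.

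**Figure D4:**
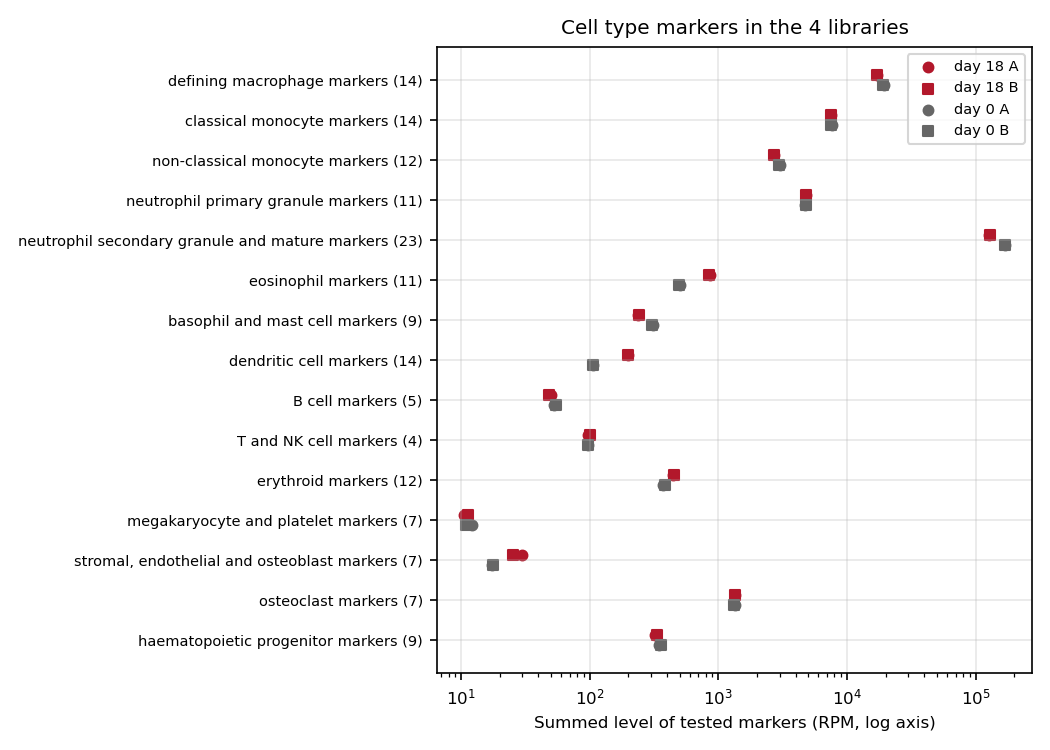
Summed level in RPM, on a log axis, of the tested markers of each cell type (number in brackets) in the 2 day 18 libraries (red) and the 2 day 0 libraries (grey). The sums of the mature neutrophil markers are lower at day 18 than at day 0.

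Motif letters in promoter windows were counted as a description. RefSeq windows of 300 bases were found for 9936 of the 14304 tested genes, 12618 windows in all, since some genes have several starts. For the genes called and at least 2-fold higher, 578 of 772 genes had 725 windows. The NF-kB letters, GGGA, any base, then TTTCC, stood in 1.66% of these windows, against 0.483% of the windows of all tested genes. The AP-1 letters TGANTCA stood in 87 of the 725 windows, against 5.35% of all, the C/EBP letters TTGCNNAA in 12.4% against 8.79%, the interferon-response letters, GAAA, any 2 bases, then GAAA, in 5.38% against 3.19%, and the STAT letters TTCNNNGAA in 8.83% against 6.93%. Genes called lower had shares of 0.241% for NF-kB, 4.66% for AP-1 and 8.81% for C/EBP. The CHR letters stood in 15.04% of their windows and the CCAAT letters in 37.64%, against 12.7% and 38.1% over all tested genes. For the mitosis list, 54 windows of 49 of the 58 genes held the CHR letters in 66.7% and the CCAAT letters in 74.1%, against 12.7% and 38.1% over all tested genes. Both strands were searched, matches of 2 motifs overlapped in 1.16% of the windows, and no test was made.

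**Figure D5:**
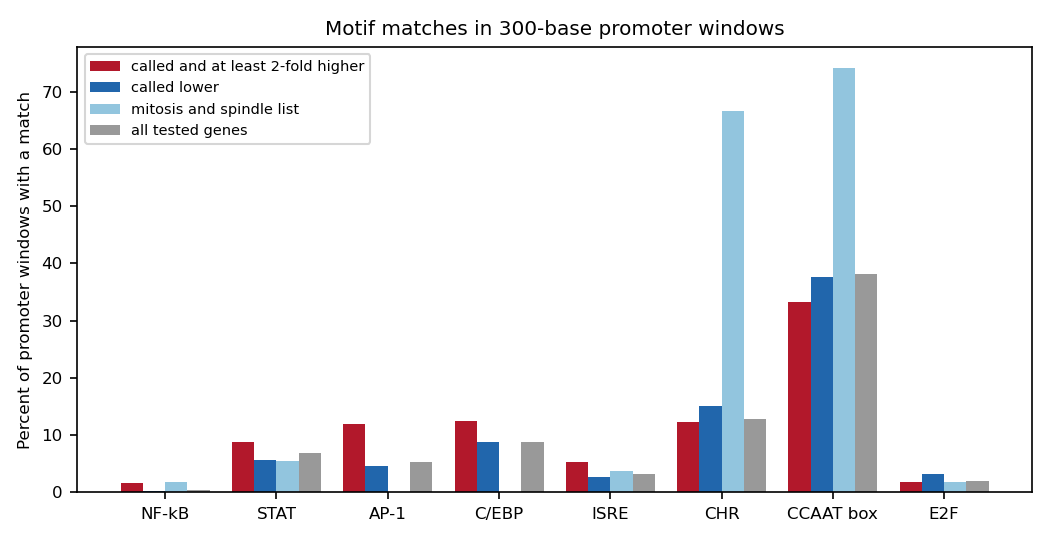
Percent of 300-base promoter windows with at least 1 match to each motif, for genes called and at least 2-fold higher, genes called lower, the mitosis list and all tested genes. CHR and CCAAT matches are most common in windows of the mitosis list, and AP-1 and NF-kB matches are more common in windows of the higher genes than in those of all tested genes.

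Along the chromosomes, 15 runs of 5 to 9 adjacent protein-coding genes were all called higher, and 7 runs of 5 to 6 were all called lower. These counts depend on each library. Without day 18 library A, day 18 library B, day 0 library A or day 0 library B in turn, 4, 3, 10 and 5 runs were higher and 5, 2, 5 and 3 lower. On the RPKM scale 7 were higher and 1 lower, with library totals alone 33 and 1, and with an equal spread at all levels 4 and 0. One run on chromosome 1, at chr1:173519717-173982745 (mm10), held 9 interferon-inducible genes of the Ifi200 family with changes of 0.28 to 1.77. In it, Ifi208 lost its call without day 18 library B (1.07), day 0 library A (1.31) or day 0 library B (1.71), and on the RPKM scale (0.33). Mndal lost its call without day 18 library B (0.24) or day 0 library B (0.25). On chromosome 11, Ccl5, Ccl9, Ccl6, Ccl3, Ccl4 and Wfdc17 rose by 0.49 to 2.92 at chr11:83525778-83706269. Ccl4 lost its call without day 18 library A (0.85), day 18 library B (0.96) or day 0 library B (0.71). On chromosome 19, a run of 7 genes at chr19:10941481-11482193 held 6 members of the Ms4a family, with changes of 0.50 to 3.19. Ms4a7 lost its call without day 18 library B (0.73) or day 0 library B (0.54), and Ms4a4b without day 18 library A (1.24). Runs on chromosome 3 held 5 guanylate-binding protein genes and the purinergic receptors P2ry12, P2ry13 and P2ry14. Family members in such runs can share reads, and some of the Ifi200 and Ms4a members had reads that were not whole.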

How the data were processed

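Total RNA of femur cells sorted as CD11b+F4/80+ was sequenced, per the labels' protocols. The submitters' processing notes name STAR 2.5.3a and mm10. No counting tool, annotation or gene filter is named in the sources used here. The authors deposited RPKM values over the whole gene span for 17528 genes, each with at least 10 reads in all. RPKM times the span in kilobases gave RPM summing to 1000000 per library, and steps between low values gave the depth. Reads came out whole, within 0.05, in 74.8% to 76.0% of genes.

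RPM were scaled by trimmed mean of M values (factors 0.967 to 1.03). Genes with at least 10 reads at the median library in 2 libraries and 15 in all were tested with limma 3.58.1 (R 4.3.3) on log2(RPM + 0.1), so fold changes of low genes are understated. All 6 libraries formed 1 model (3 residual degrees of freedom), with a spread that follows the level, robust moderation and Benjamini-Hochberg adjustment, first tested on simulated data.

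Named were the 15 largest rises and falls at a log2 level of at least 3, up to 5 called members per list by p, exceptions, genes with at most 3 reads in each day 0 library, and a fixed set of macrophage genes. Other list members and Spon1 were named after their values were seen. Members, lists and motifs were chosen with earlier results of these data known. Promoters are RefSeq's (GRCm38.p6).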

Additional observations from a re-analysis of the deposited data

How the results depend on the processing

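The counts were recomputed under 17 alternatives, and no called gene was called in the opposite direction in any of them. Genes called lower numbered 2465, but 1423 with library totals alone, 1427 on the RPKM scale and 1087 with an equal spread at all levels. Genes called higher numbered 2578 and 1749 to 3432 over the alternatives that keep all libraries. Leaving out 1 library in turn gave 1855 to 2071 higher and 1852 to 1933 lower, where the lone library is assumed to vary like the other groups. With the column letter as a replicate block, 2507 were higher and 2425 lower. The letters are not tied to animals by the labels. Deviations of same-lettered libraries correlated between -0.10 and 0.02, which shows no shared signal but cannot exclude that the letters pair the samples. Of 402 named genes, 95 lost their call in at least 1 alternative. With library totals alone Hp turned to 0.0168 (-0.07 with the main scaling), Prdx5 to 0.0237 (-0.06) and Vsir to 0.0175 (-0.07), and that scaling moves the median of all genes to 0.10. Of 1768 list counts over the alternatives, 155 moved by more than 1.5 times or to or from 0. A part of those not given above follows. Transcription factors called lower numbered 4 in the main test, 1 with library totals alone and 2 on the RPKM scale. Testing only genes with whole reads also drops list members. Members higher then numbered 14 for cytokine receptors (22 in the main test), 17 for lysosomal genes (27) and 6 for MHC class II (11). Mitosis genes lower then numbered 37 (57). With an equal spread at all levels, members lower numbered 1 for JAK-STAT (7 in the main test), 4 for Fc receptors (9), 4 for scavenger receptors (8), 5 for iron (9), 3 for NADPH oxidase (6), 5 for glycolysis (14), 2 for type I interferon (5) and 3 for matrix (5). In that setting members higher numbered 4 for the clock (7), 0 for secondary granules (5) and 3 for primary granules (5). On the RPKM scale, members lower numbered 5 for scavenger receptors, 7 for glycolysis and 4 for JAK-STAT, and members higher 3 for secondary granules. With library totals alone, type I interferon genes lower numbered 2. The median SE over all tested genes was 0.11, and rare genes could have a far larger SE, such as 0.64 for Arg1 and 0.93 for Ccl7. Changes well above 0.11 could therefore go uncalled in rare genes, as for the dendritic marker Xcr1 at 1.68.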
